A study of Mus musculus with 6 samples.

Results

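In vehicle-treated mouse fibroblasts, 1258 of 6444 peaks of DNA ends (19.5%) had their summit just inside a protein-coding gene, at 1 of its ends. A peak was taken when its summit lay within 1 kb of an end of exactly 1 protein-coding gene and between the start and end of that gene. Gene positions were those of the RefSeq table of the assembly GRCm38.p6, which is the mm10 build. Summits in a short stretch of chromosome 15 where peaks are dense, with a high background, were left out. The 1258 peaks lay at 1254 genes, which is 5.73% of the 21883 protein-coding genes on the 21 chromosomes used.

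DNA ends were mapped by BrITL, in which DNA ends of permeabilised cells are tagged with a biotinylated dideoxynucleotide, pulled down on streptavidin beads as sheared fragments and sequenced. The cells of all 6 samples were passage-immortalised embryonic fibroblasts of the mouse. They were heterozygous for Atr (ATR+/-), the kinase that guards replication forks, and made Bcl-xL, a protein that blocks apoptosis. The vehicle group had DMSO for 18 h (2 pull-down samples and 1 input sample). The treated group had 1 µM of the ATR inhibitor ATR-45 together with 0.2 µM aphidicolin, which inhibits replicative DNA polymerases, for 18 h (2 pull-down samples and 1 input sample). The vehicle cells thus also carried the Atr genotype and Bcl-xL. The files held 1 pooled peak list per condition, so each peak has 1 value, there is no replicate error, and no test between conditions was possible. Peaks are not replicates, and intervals below are exact 95% intervals (Clopper-Pearson for shares, order statistics for medians) that cover counting error only.

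The 5′ end of a protein-coding gene is where RNA polymerase II begins transcription. The promoters of widely used genes are mostly rich in CpG dinucleotides, are free of nucleosomes around the start, and often hold polymerase that pauses shortly after it has begun. Topoisomerases cut and reseal DNA at such sites, and DNA ends at active promoters have been mapped in cells that were not given any damaging agent. The RefSeq promoter table, which lists a strand and the 250 bases before and 50 bases after annotated starts, was used to tell 5′ ends from 3′ ends.

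Promoters of 7 of these genes show the sequence under the peaks. The first 5 belong to the peaks of highest fold enrichment at a 5′ end that had a listed start within 1 kb of the summit. Of these 5, the peaks of Ube2d3, Ppm1b and Zyx overlap a peak of the treated list. Sf1 is shown for its treated fold (5.96), the highest after that of Ppm1b (6.18). Vmn2r29 belongs to the peak of lowest fold by the same rule among windows with every base known, which leaves out Asmt. Sequences are from RefSeq (GRCm38.p6), 5′ to 3′ along the gene, and capitals mark any match to 9 short motifs that are spelled out further on.
Ube2d3, chr3:135438066-135438365, plus strand: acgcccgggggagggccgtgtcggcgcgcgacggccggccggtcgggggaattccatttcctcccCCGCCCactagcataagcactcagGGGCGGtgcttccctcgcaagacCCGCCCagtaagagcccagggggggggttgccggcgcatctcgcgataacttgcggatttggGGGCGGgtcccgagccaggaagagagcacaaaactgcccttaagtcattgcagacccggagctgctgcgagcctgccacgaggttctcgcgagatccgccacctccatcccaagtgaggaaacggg
Jun, chr4:95052173-95052472, minus strand: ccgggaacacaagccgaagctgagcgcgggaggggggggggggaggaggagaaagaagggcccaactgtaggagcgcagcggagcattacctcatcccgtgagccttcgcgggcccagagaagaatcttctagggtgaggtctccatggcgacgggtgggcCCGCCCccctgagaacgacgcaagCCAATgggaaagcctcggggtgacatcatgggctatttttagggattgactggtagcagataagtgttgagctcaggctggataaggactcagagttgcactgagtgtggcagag
Ppm1b, chr17:84957751-84958050, plus strand: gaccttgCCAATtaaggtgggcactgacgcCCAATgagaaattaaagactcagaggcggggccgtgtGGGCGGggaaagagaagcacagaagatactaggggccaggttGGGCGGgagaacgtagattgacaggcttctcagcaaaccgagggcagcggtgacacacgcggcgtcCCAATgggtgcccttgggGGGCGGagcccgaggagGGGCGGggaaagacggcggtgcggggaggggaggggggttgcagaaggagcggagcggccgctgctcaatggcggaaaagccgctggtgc
Zyx, chr6:42349578-42349877, plus strand: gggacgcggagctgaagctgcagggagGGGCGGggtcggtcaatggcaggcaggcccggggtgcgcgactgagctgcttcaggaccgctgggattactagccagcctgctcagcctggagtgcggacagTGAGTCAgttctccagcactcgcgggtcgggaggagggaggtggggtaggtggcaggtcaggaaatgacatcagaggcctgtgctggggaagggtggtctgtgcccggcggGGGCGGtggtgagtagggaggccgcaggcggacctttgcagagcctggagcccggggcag
Ssbp2, chr13:91460847-91461146, plus strand: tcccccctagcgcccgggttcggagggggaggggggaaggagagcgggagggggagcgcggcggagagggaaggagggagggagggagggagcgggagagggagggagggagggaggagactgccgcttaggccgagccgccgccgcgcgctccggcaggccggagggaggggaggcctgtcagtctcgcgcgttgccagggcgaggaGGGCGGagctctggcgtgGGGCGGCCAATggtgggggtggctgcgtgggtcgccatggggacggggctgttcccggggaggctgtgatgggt
Sf1, chr19:6363440-6363739, plus strand: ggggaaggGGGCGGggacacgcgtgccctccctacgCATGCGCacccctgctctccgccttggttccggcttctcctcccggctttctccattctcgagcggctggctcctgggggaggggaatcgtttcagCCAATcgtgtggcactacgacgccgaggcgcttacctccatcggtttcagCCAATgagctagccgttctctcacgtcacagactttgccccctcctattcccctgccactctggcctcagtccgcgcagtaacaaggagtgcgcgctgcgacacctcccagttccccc
Vmn2r29, chr7:7278240-7278539, minus strand: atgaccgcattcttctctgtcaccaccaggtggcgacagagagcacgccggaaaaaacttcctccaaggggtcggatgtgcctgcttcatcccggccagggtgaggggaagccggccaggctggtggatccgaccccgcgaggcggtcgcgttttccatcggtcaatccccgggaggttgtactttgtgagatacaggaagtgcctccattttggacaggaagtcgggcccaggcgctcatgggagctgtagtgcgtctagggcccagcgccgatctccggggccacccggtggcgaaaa

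The 7 windows were rich in G and C, from 60.0% in Jun to 75.3% in Ssbp2. Ube2d3 held 29 CpG dinucleotides and 4 GC boxes (GGGCGG), and Ppm1b held 4 GC boxes and 3 CCAAT boxes. Jun had 1 GC box and 1 CCAAT box, and Zyx 2 GC boxes and 1 AP-1 motif. The window of Vmn2r29, a vomeronasal receptor gene, held 23 CpG dinucleotides and none of the 9 motifs. The summits of Ube2d3, Jun and Sf1 lay 34, 14 and 71 bp downstream of the annotated start, and that of Vmn2r29 lay 280 bp downstream. The summits of Ppm1b, Zyx and Ssbp2 lay upstream of the nearest listed start, at -343, -124 and -44 bp from it, yet inside the gene as the gene table bounds it.

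Nearly all of the peaks inside 1 gene end were at the start of the gene, as the gene table bounds it, and not at its end. A strand was listed for 1025 of the 1258 peaks, and 998 of them (97.4%, interval 96.2 to 98.3%) were at the 5′ end. Over all DMSO peaks at an end of exactly 1 gene the share was also 97.4%, and among the 1414 with a summit outside the gene it was 97.5% (interval 96.5 to 98.2%). The other 27 peaks were nearer to a 3′ end, and 6 of these were at genes so short that both ends lay within 1 kb.

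Summits clustered close to the annotated start. The 998 summits at a 5′ end lay a median of 292 bp into the gene (quartiles 134 and 532 bp), and 197 of them (19.7%) lay within 100 bp. Their number fell from 195 in the first 100 bp to 87 between 400 and 500 bp and 37 in the last 100 bp of the window. The 1378 summits on the outer side of a 5′ end lay a median of 277 bp upstream (quartiles 143 and 426 bp), with the highest number, 259, between 100 and 200 bp upstream. Inside summits made up 42.0% of the 2376 peaks at the 5′ end of 1 gene. Measured from the nearest start in the promoter table, 535 of the 998 inside summits (53.6%) lay within 250 bp, the median was 161 bp downstream, and 222 (22.2%) lay upstream of that start. Which side of the start a summit falls on thus depends in part on which annotated start is used. Some summits counted at a 5′ end had no listed start of their gene within 1 kb. Among them were Sirt4 (-5595 bp from the nearest listed start), Luc7l2 (-3600 bp) and Zbtb20 (-371556 bp).

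**Figure D1:**
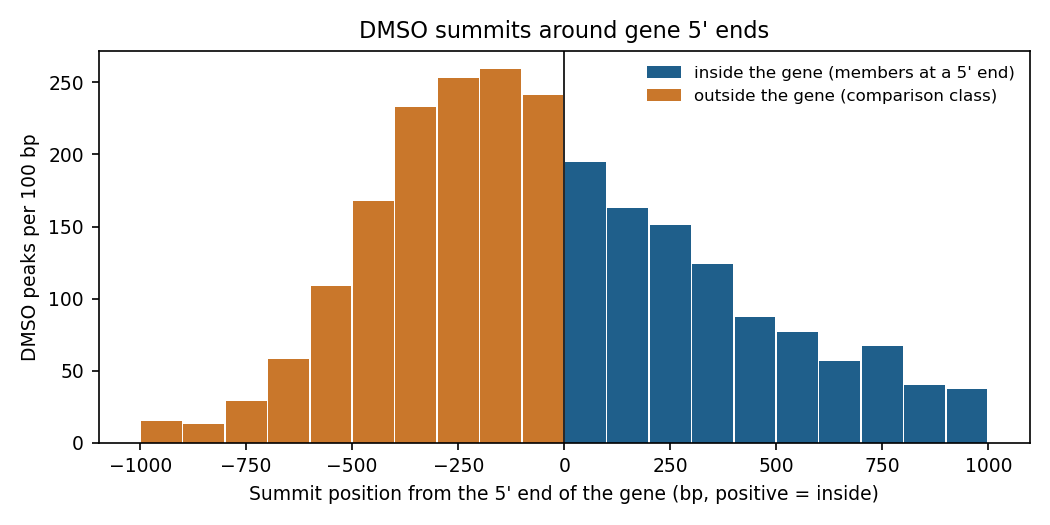
Number of DMSO peaks per 100 bp by the position of the summit from the 5′ end of the gene in bp, for peaks at an end of exactly 1 protein-coding gene with a listed strand. Blue bars are the 998 peaks with a summit inside the gene and orange bars the 1378 with a summit outside. The counts are highest just upstream of the end, at 259, and fall to 37 at the inner edge of the window.

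The deposited fold enrichment is the authors' value for the pull-down over the background term of their caller at the summit, on a linear scale. In the 1258 peaks it ran from 4.01 to 28.2, with a median of 11.5 (interval 11.2 to 11.7) and quartiles of 10.0 and 13.7. Inverting the caller's formulas gave a median of 47 pull-down fragments at the summit, from 35 to 183. In these formulas each pull-down fragment counts as 0.805 of scaled coverage, and the background term is on that scale. The fold is the scaled coverage plus 1 over the background term plus 1. The −log10 q ran from 18.5 to 105, with a median of 28.5. For 84.3% of the peaks the background term was the same genome-wide value, so that fold, fragment number and q rank these peaks alike. A fold of at least 20 was reached by 38 of the 1258 peaks (3.02%), against 2.88% of all DMSO peaks outside the dense block of chromosome 15. The median was 11.9 (interval 11.7 to 12.1) for summits outside 1 gene end, 11.7 (11.3 to 12.0) at ends of neighbouring genes, 11.1 (11.0 to 11.2) deep inside coding genes and 10.5 (10.3 to 10.7) away from coding genes. The interval for the inside peaks overlapped that of the neighbouring-gene class, met those of the outside class at 11.7 and of the deep-inside class at 11.2, and lay above that of the peaks away from genes. These classes hold peaks of 1 list, and the differences were not tested over samples.

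The peaks of highest fold were at genes of several unlike functions. Regulators of transcription and RNA were among the 20 highest. Zfp36l2, which promotes mRNA decay, held the highest, with a fold of 28.2 (115 fragments; peak at chr17:84187557-84190408, mm10), and a second peak with a fold of 23.9 (97 fragments) in the same gene. Jun, which encodes a subunit of the transcription factor AP-1, had a fold of 26.8 (109 fragments; peak at chr4:95049075-95055260), with the summit 14 bp inside its 5′ end. Sp3, which encodes a factor that binds GC boxes, had 23.6. Sf1, which encodes the splicing factor that binds the branch point, had 22.9, and Luc7l2, which encodes a protein associated with the U1 small nuclear ribonucleoprotein, had 22.4. The peak at 4933440N22Rik (22.2) was nearest to a 3′ end and is described further on.

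Genes for enzymes of protein modification made up another part. Ube2d3, for a ubiquitin-conjugating enzyme, had the second highest fold, 28.0 (114 fragments; peak at chr3:135436689-135441244). Ppm1b, for a serine/threonine phosphatase, had 25.8. Uspl1, for a SUMO isopeptidase, had 23.8, and Prmt1, for the main enzyme of asymmetric arginine methylation, had 23.4. Sirt4, for a mitochondrial sirtuin, had 26.8, and 2 small RNA genes (Gm24265 and Gm24407) ended within 1 kb of its summit. Brat1, for a protein that binds BRCA1 and ATM, had 23.0 with 117 fragments. The background term was higher there, at 3.13 in scaled coverage, than the genome value of 2.31.

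The rest of the 20 included cell-surface, cytoskeletal, metabolic and DNA-binding genes, and Zfpm1, for a cofactor of GATA factors, had the same fold of 22.2 as the last of them. Zyx, for the focal adhesion protein zyxin, had a fold of 25.6. Lgals1, for galectin-1, had 24.1 over a peak of 8040 bp, and Tnfrsf12a, for a receptor of the TNF receptor family, had 23.6 over 7368 bp. Dnpep, for an aminopeptidase, had 24.8, and Ssbp2, for a single-stranded DNA binding protein, had 25.1. Eno1 and Gapdh, for enzymes of glycolysis, had 22.9 and 22.2. At the bottom were Vmn2r29 (6.77), Asmt, for the last enzyme of melatonin synthesis (6.19), and Lars2, for the mitochondrial leucyl-tRNA synthetase (4.01). In these 3 the background term was high, at 7, 8 and 36 in scaled coverage. Lars2 had the most pull-down fragments of all 1258 peaks (183) and the lowest fold.

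Most of the peaks spanned the gene start on both sides. Their median width was 2829 bp (quartiles 2364 and 3480 bp), and 943 of the 998 at a 5′ end (94.5%) covered that end. They reached a median of 1234 bp upstream and 1650 bp into the gene. The rule takes only summits inside the gene, and the summit lay at 52.4% of the way along the peak (median, quartiles 42.9 and 61.1%). The part of the rule in the longer reach into the gene was not tested. Peaks of the highest of 5 fold ranges had a median width of 3788 bp (n = 176), and those of the lowest 2464 bp (n = 165). Across the 1258 peaks, fold and width had a Spearman rho of 0.55, as a description of 1 list whose peaks share libraries and background. For fold and gene length rho was about 0.00, and for fold and distance from the nearest listed start it was -0.07 (n = 998).

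**Figure D2:**
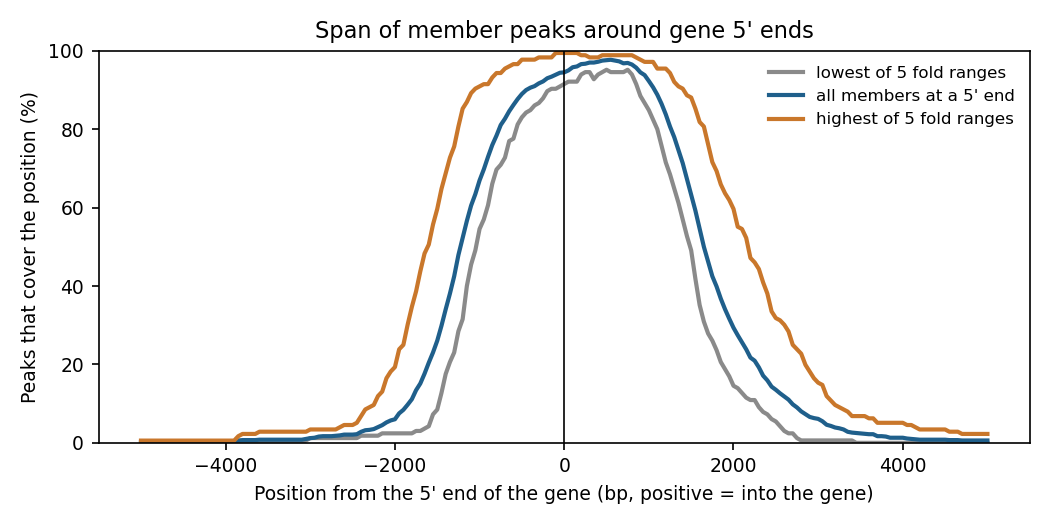
Share of peaks at a 5′ end that cover each position from 5000 bp upstream to 5000 bp into the gene, in percent, for all 998 peaks and for the lowest and highest of 5 ranges of fold. The curve for the highest range is wider on both sides, with a median reach of 1610 bp upstream and 2168 bp into the gene, against 1027 and 1480 bp in the lowest range.

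Widths departed from this pattern in few peaks. Among the widest were those at Msh5, for a meiotic MutS homologue (9343 bp, fold 18.3), Lama5, for a laminin chain (8845 bp, fold 9.77), Lgals1 and Tnfrsf12a. In all, 48 peaks were wider than 5000 bp, and 20 covered their whole gene. Another 6 were narrower than 500 bp. These were at Eif3j2 (165 bp, fold 9.29), Asmt (238 bp), Ccl27a, for a skin chemokine (263 bp, fold 10.0), Lars2 (310 bp), Rpl37rt (371 bp, fold 18.0) and Gm52481 (419 bp, fold 20.2). The background term was above the genome value in Asmt, Lars2, Rpl37rt (4.69 in scaled coverage) and Gm52481 (3), and its part in the narrow width was not tested. Over all 1258 peaks it was at least 2 times the genome value in 8 (0.636%), against 2.63% of the DMSO peaks of the other classes and 69 of those away from coding genes (7.14%).

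**Figure D3:**
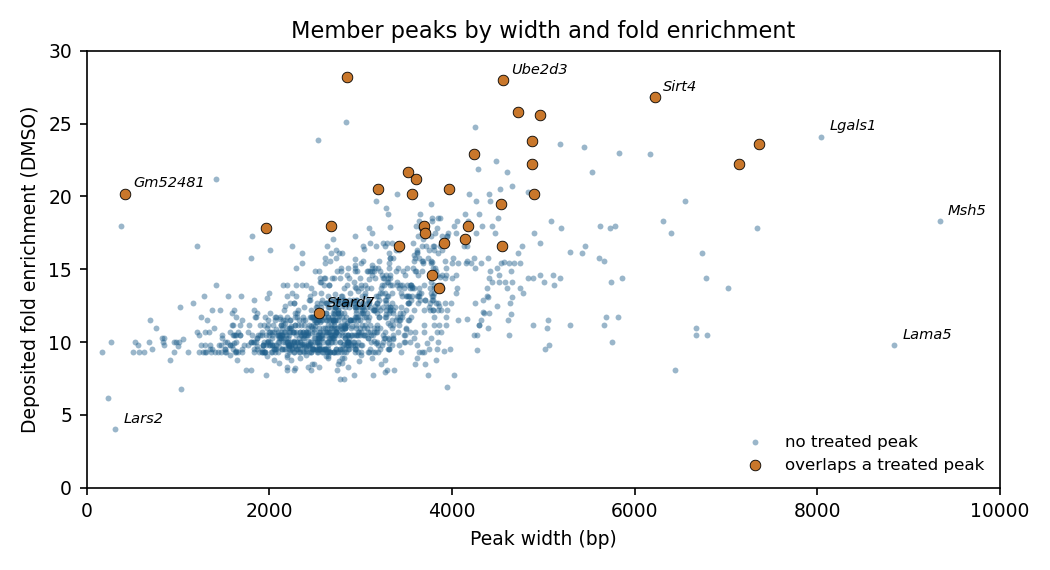
Deposited DMSO fold enrichment (linear scale) against peak width in bp for the 1258 peaks, with peaks that overlap a treated peak in orange. The orange points lie between folds of 12.0 (Stard7) and 28.2, and all but Gm52481 (419 bp) and Kansl2 (1962 bp) are wider than 2500 bp. The highest blue points next to them include Lgals1 at 8040 bp.

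Few of the peaks met a peak of the treated list. Of the 1258, 30 (2.38%, interval 1.61 to 3.39%) overlapped a treated peak by at least 1 bp, against 2.61% of all 5938 DMSO peaks outside the dense block. The share was 3.53% (interval 2.71 to 4.52%) for summits outside 1 gene end, 2.90% at neighbouring genes, 2.09% deep inside genes and 1.76% away from genes, with intervals that overlapped that of the inside peaks. The share therefore lay near the background. The 30 had a median DMSO fold of 20.2 and a median width of 3941 bp, and the other peaks 11.5 and 2822 bp. The highest of the 5 fold ranges (14.6 to 28.2) held 27 of the 30, out of 228 peaks (11.8%, exact bounds 7.95 and 16.8%). The next ranges down held 2 of 254, 1 of 260, 0 of 313 and 0 of 203, where a count of 0 has an upper bound of 1.80%. The treated list reached down to a −log10 q of 3.38, against 18.5 in the DMSO list, and held only 491 peaks, and a DMSO peak without a treated one may still have ends there in treated cells.

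**Figure D4:**
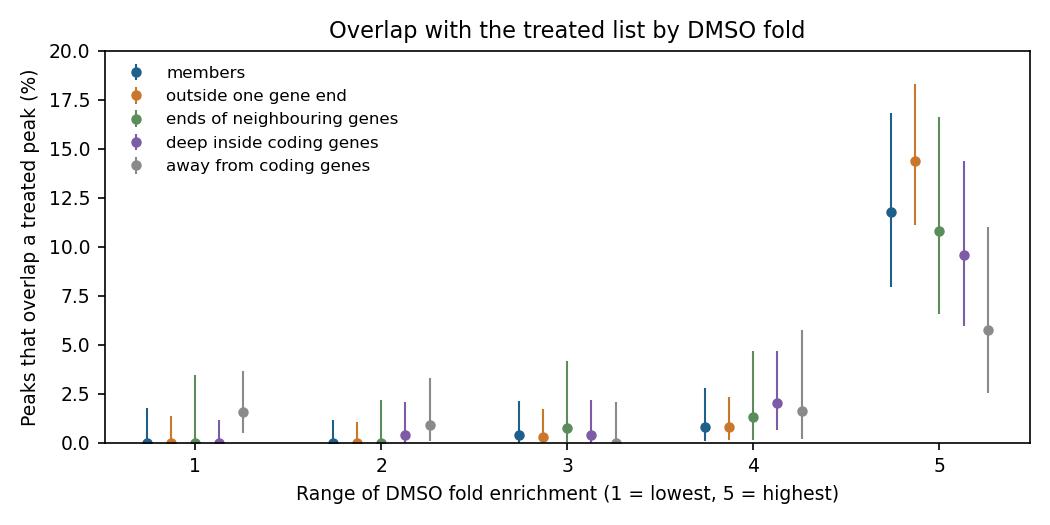
Share of DMSO peaks that overlap a treated peak by at least 1 bp, in percent with exact 95% intervals, in 5 ranges of DMSO fold, for the peaks inside 1 gene end (members) and 4 other classes. In the highest range the share was 11.8% for members and 14.4% for summits outside 1 gene end, with overlapping intervals, and in the lower ranges no point lies above 2.03%.

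The treated peaks at these 30 sites were narrow and close to the DMSO summit. Their own fold, from the authors' treated list, ran from 3.60 to 6.18 with a median of 5.30, and their width from 132 to 1252 bp with a median of 518 bp. The treated summit lay within 250 bp of the DMSO summit in 20 of the 30, with a median distance of 93.5 bp and a range of 0 to 954 bp. In the gene for Ezh2, the methyltransferase of Polycomb complex 2, the 2 summits were at the same base. By treated fold the first were Ppm1b (6.18), Sf1 (5.96), Zyx (5.89), Napa, for a factor that recycles SNARE complexes (5.85), and Ube2d3 (5.84). Others among the 10 highest were Xpo1, for the main nuclear export receptor (5.70), Mxd1, for a partner of MAX that opposes MYC (5.61), Mtmr4, for a lipid phosphatase (5.57), and Anapc5, for a subunit of the anaphase-promoting complex (5.43). Their DMSO folds ran from 17.1 (Mxd1) to 28.0 (Ube2d3), and folds of the 2 lists are not on a common scale.

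Not all peaks of high DMSO fold met a treated peak. Of the 38 peaks with a fold of at least 20, 17 met a treated peak and 21 did not. The same share was not counted for the other DMSO peaks of such fold, so this split cannot be read as particular to the inside peaks. In the highest of the 5 fold ranges the share was 11.8% here and from 5.76% to 14.4% in the other classes. The 21 without a treated peak included Jun (26.8), Ssbp2 (25.1), Dnpep (24.8), Lgals1 (24.1), the second peak of Zfp36l2 (23.9), Sp3 (23.6), Prmt1 (23.4), Brat1 (23.0), Eno1 (22.9) and Luc7l2 (22.4). The lowest DMSO folds with a treated peak were at Stard7, for a lipid transfer protein (12.0), Thap1, for a zinc finger factor (13.7), and Hoxc13, for a homeobox factor of hair and nail (14.6).

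The promoters of these genes were richer in CpG than those of genes without DMSO peaks. For each gene the listed start nearest its 5′ end was used, and 994 genes with a peak at the 5′ end had a window of 300 known bases. Their median GC content was 63.8%, against 53.3% in 13187 genes with no DMSO summit inside them or within 1 kb and 56.3% in all 17485. The ratio of observed to expected CpG had a median of 0.817, against 0.412 and 0.577. It was at least 0.6 in 83.2% of the 994, against 48.4% of all promoters and 37.5% of those without a summit. Genes with a summit on the outer side of the 5′ end had higher values still, at 66.0% GC and 90.4% with a ratio of at least 0.6. CpG content hardly moved with fold, with medians from 0.796 to 0.832 in the 5 fold ranges.

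Short motifs were searched on both strands of the same windows, each on its own, so that matches could overlap. The GC box (GGGCGG), bound by Sp and KLF factors, was in 77.5% of the 994 windows (interval 74.7 to 80.0%), against 46.3% of all promoters and 37.6% of those without a summit. Its share was 65.6% in the lowest fold range and 80.0% in the highest. The TATA box (TATAAA) was in 4.73% (interval 3.49 to 6.24%), against 13.3% of all promoters and 15.9% without a summit. The CCAAT box (CCAAT), bound by NF-Y, was in 45.0%, against 39.2% of all. The E box (CACGTG) was in 11.9%, against 7.92%, and the ETS motif (CCGGAAG) in 15.4%, against 11.9%. The cyclic AMP response element core (TGACGTC) was in 7.95%, against 3.99%, the YY1 motif (GATGGCG) in 6.74%, against 4.45%, and the NRF1 motif (GCGCATG) in 8.15%, against 4.87%. Genes with a summit on the outer side of the 5′ end were alike, so these shares were not particular to the inside peaks. There the GC box was in 82.4%, the TATA box in 4.87%, the CCAAT box in 46.8% and the E box in 11.9%. The ETS motif was in 17.1%, the cyclic AMP element in 6.25%, the YY1 motif in 7.71% and the NRF1 motif in 10.3%. The AP-1 motif (TGANTCA) was in 5.13% (interval 3.84 to 6.69%), against 7.03% of all promoters and 2.76% (interval 1.96 to 3.77%) of genes with a summit on the outer side. Motifs rich in G and C match more often in windows rich in G and C, and the part of base composition in these shares was not tested. A match is a run of letters and not a measured binding site.

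**Figure D5:**
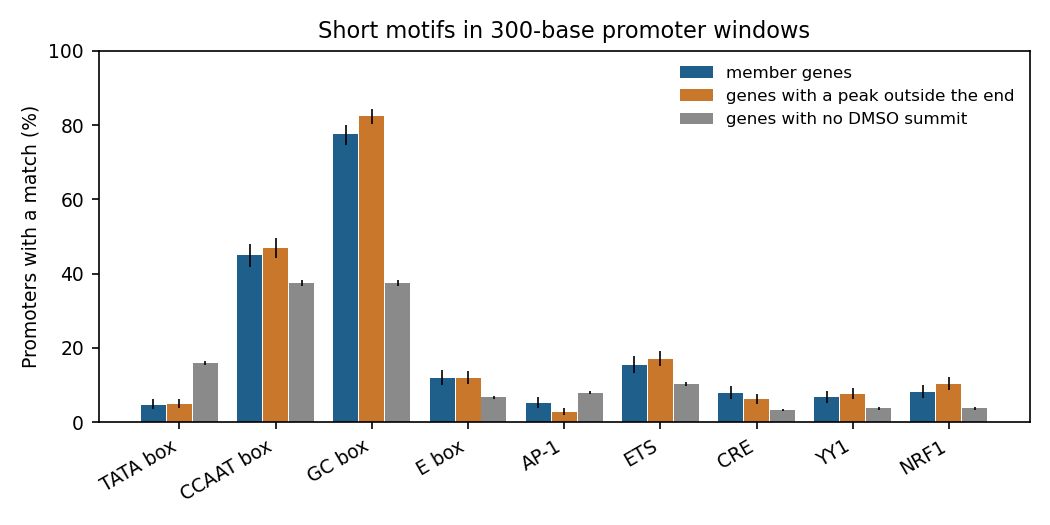
Share of 300-base promoter windows with at least 1 match to each of 9 motifs on either strand, in percent with exact 95% intervals, for 994 genes with a peak inside the 5′ end, 1375 genes with a peak outside it and 13187 genes with no DMSO summit. The GC box stands at 77.5%, 82.4% and 37.6% in these groups, and the TATA box at 4.73%, 4.87% and 15.9%.

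By function, the peaks were read against lists of genes that were chosen with earlier results of these data known, and each count is set beside the 5.73% of all protein-coding genes that held such a peak. Of 34 fibroblast matrix and cytoskeleton genes, 9 held one (26.5%, interval 12.9 to 44.4%). Among them were Lgals1 (fold 24.1), Fn1, for fibronectin (16.3), Lox, for the enzyme that cross-links collagen (13.2), the tropomyosin genes Tpm4 (13.7), Tpm1 (12.7) and Tpm2 (9.77), S100a6 (11.7) and Fbn1, for fibrillin-1 (9.29). A DMSO summit of any kind lay inside or within 1 kb of 18 of the 34. Markers of other cell types held none. Of 80 genes that mark neurons, hepatocytes, blood cells and muscle, 0 held a peak inside 1 gene end, with an upper limit of 16.8% for each list of 20, and 2 held or neighboured any DMSO summit, against 23.8% of all protein-coding genes.

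Among stress and signalling genes, 5 of 20 heat shock chaperone genes held such a peak (25%, interval 8.66 to 49.1%). They were Hsp90ab1 (21.7), Hspa8 (17.5), Dnajb1 (14.9), Dnajb5 (12.7) and Hsp90aa1 (11.7). Of 25 p53 response genes it was 5, namely Plk2 (16.1), Rrm2b, for a ribonucleotide reductase subunit (13.9), Mdm2, for the ligase that degrades p53 (12.0), Gadd45a (11.9) and Aen (11.7). Of 23 immediate early genes other than AP-1 it was 3 (13.0%, interval 2.78 to 33.6%), namely Dusp1, for a phosphatase of MAP kinases (20.2), Ccn2 (14.1) and Ier5 (12.2). Of 14 AP-1 genes it was Jun alone (7.14%, interval 0.181 to 33.9%). TEAD and SMAD genes held 4 of 18 (22.2%, interval 6.41 to 47.6%), namely Smad2 (14.1), Smad3 (12.4), Wwtr1 (12.1) and Ski (10.0). Sp and KLF genes held 2 of 25 (Sp3 23.6 and Klf7 12.9), and the nuclear factor I, MEIS and PBX genes 0 of 13. A DMSO summit of any kind, these peaks included, lay inside or within 1 kb of 23.8% of all protein-coding genes. In these lists it was 15 of the 20 heat shock, 16 of the 25 p53 response and 16 of the 23 immediate early genes. It was also 9 of the 14 AP-1, 14 of the 18 TEAD and SMAD and 13 of the 25 Sp and KLF genes. Of the 13 nuclear factor I, MEIS and PBX genes it was 8. A count of inside peaks above the share of all genes is thus not particular to this class.

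Splicing and cell cycle genes also held peaks of this kind, while ribosomal protein genes held them near the share of all genes. Of 32 SR and hnRNP splicing genes it was 6 (18.8%, interval 7.21 to 36.4%). All were of the SR and SR-like type, namely Srsf2 (16.3), Srsf4 (14.4), Srsf10 (13.7), Srsf5 (12.7), Tra2b (10.7) and Tra2a (9.29). Of 79 cytosolic ribosomal protein genes it was 6 (7.59%, interval 2.84 to 15.8%), near the 5.73% of all genes, led by Rplp0 (15.8) and Rpl3 (11.7). In the ZFP36 and 7SK list, 3 of 12 genes held one, among them Zfp36l2 and Hexim1, for an inhibitor of the elongation factor P-TEFb (13.7). Of 37 cyclin, CDK and E2F genes it was 7 (18.9%, interval 7.96 to 35.2%), led by E2f8 (12.2), Cdk12 (11.7), Cdk7 (11.2) and Cdk1 (11.0). A DMSO summit of any kind lay inside or within 1 kb of 29 of the 32 splicing and 36 of the 79 ribosomal protein genes. It was 10 of the 12 genes of the ZFP36 and 7SK list and 29 of the 37 cyclin, CDK and E2F genes.

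Of 27 ATR pathway and fork genes 4 held a peak inside 1 end (14.8%, interval 4.19 to 33.7%), Rpa2, for a subunit of the single-strand binding complex (15.6), and 3 subunits of the replicative helicase, Mcm2 (11.7), Mcm5 (10.5) and Mcm6 (10.0). Of 31 double-strand break repair genes it was Rnf8, for a ubiquitin ligase at breaks (fold 9.29), a share of 3.23% (interval 0.0816 to 16.7%). Of 23 genes of common fragile sites it was Ctnna3 (fold 9.77), a share of 4.35% (interval 0.110 to 21.9%). Its summit lay 335 bp inside its 5′ end, and a transfer RNA gene (n-TStga3) had an end within 1 kb. The break repair and fragile site shares were near the 5.73% of all genes. A DMSO summit of any kind lay inside or within 1 kb of 15 of the 27 ATR pathway and fork genes. It was 13 of the 31 break repair genes and 6 of the 23 fragile site genes, against 23.8% of all protein-coding genes. Of the 58 genes of these lists that held such a peak, Zfp36l2 was the only one whose peak met a treated peak. Among all 1258 peaks the share was 2.38%, so no lack of overlap in these lists can be read from this count.

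The 27 peaks nearest a 3′ end had a median fold of 11.7, like the 11.5 of those at a 5′ end, and 2 of them met a treated peak. The 6 at genes with both ends in the window were all histone genes (H1f2 16.6, H4f16 14.9, H1f3 13.9, H4c4 12.2, H4c11 10.0 and H3c10 9.29), so that the nearer end says little there. Of the other 21, the peak of highest fold, at 4933440N22Rik (22.2), had a listed start of Hnrnpf, for a splicing protein, within 1 kb, and that at Gm46933 (16.6) had a listed start of G3bp2, for a stress granule protein. The peak at Hes7 (11.7) had 3 transfer RNA genes and another non-coding gene with an end within 1 kb. The remaining 18 had no listed start and no non-coding gene end within 1 kb, among them Rpl37rt (18.0), Prrg2 (17.8), Pdap1 (16.0), Fhl3 (14.9), Anxa5 (12.4) and Bad (11.7). Gm52481 on the Y chromosome (20.2) met a treated peak of fold 3.60.

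In 4 genes there was more than 1 such peak. Gapdh had a peak at its 5′ end (fold 22.2, 4889 bp) and one at its 3′ end (9.29, 502 bp). In Plxnd1, for a semaphorin receptor (folds 10.7 and 10.5), Sfr1, for a recombination factor (17.1 and 9.31), and Zfp36l2 (28.2 and 23.9), both lay at the same end of the gene. In all, 88 of the 1258 peaks had another DMSO summit within 5000 bp.

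The cut at 1 kb fell in a thin part of the distribution. Just inside it were the peaks of 4933440N22Rik (996 bp, fold 22.2), Sh2b3 (997 bp, 15.4) and Stk10 (997 bp, 10.0). Just beyond it, inside a gene, were those of Hspb8 (1006 bp, 10.5), Slc6a6 (1006 bp, 10.7) and Emp3 (1008 bp, 9.53).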

How the data were processed

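The authors deposited 1 peak list per condition, and per the file's peak names it pools the pull-downs of that condition over the pooled inputs. The submitters' processing notes name the mm10 build, and, with no role or order, MACS2 2.1.0, Picard 1.141, STAR 2.5.2a, bcl2fastq 2.17.1.14 and SAMtools 0.1.19. How peaks were chosen for deposit was not given in the sources used here. The deposited score is the whole part of 10 times the deposited −log10 p. The fold enrichment (a ratio) and the −log10 p and −log10 q values are also as deposited. Read totals are unknown, so depth was recovered only as fragments at each summit, by inverting the caller's fold and Poisson p (solved for 100% of peaks). On 289 DMSO peaks simulated with the same formulas 100% were right. That checks the inversion, and cannot show that the formulas hold for the deposited peaks.

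Peaks were classed against the RefSeq gene table with pandas 2.3.3, SciPy 1.17.1, NumPy 2.4.6 and Python 3.11.15; all 2160 summits planted at known positions were classed correctly. Strand came from the RefSeq promoter table, which had entries for 17491 protein-coding genes. The members, gene lists and motifs were chosen with earlier results of these data known. Named peaks are the 20 of highest fold, 10 of highest treated fold, 10 of highest fold with no treated peak, 5 of highest fold at a 3′ end, the 5 widest and narrowest, the 3 of lowest fold, those at the 1 kb limit, genes with more than 1 peak and list genes. Other names (Zfpm1, Ezh2, Stard7, Thap1, Hoxc13, Kansl2 and the remaining 3′ and narrow peaks) were chosen after their values were seen. Windows of 500 bp and 2 kb, peak midpoints, stricter −log10 q and other overlap rules were tried. A few genes that these rules pick are not reported here.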

Additional observations from a re-analysis of the deposited data

How the results depend on the processing

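Of 28 alternatives, 22 left a count within 1.5 times, or a share or median within its interval. With windows of 500 bp and 2 kb there were 984 and 1389 peaks, with peak midpoints 1702, and with ends of all genes counted as neighbours 1031. Keeping only DMSO peaks with −log10 q of at least 50 left 110 peaks. Their median fold was 18.3, a rise that follows from a limit on q. Their 5′ share was 94.4% (interval 87.4 to 98.2%, n = 89, which takes in the main 97.4%). A treated peak was met by 22.7% of them, and the reason for this higher share was not tested. With midpoints the 5′ share was 98.3%. Keeping only treated peaks with −log10 q of at least 5 lowered the overlap to 1.03%, as fewer treated peaks were left. The alternatives chosen after seeing the data were peaks with the background term at the genome value (median fold 11.7, overlap 2.45%) and peaks at genes without both ends in the window (5′ share 97.9%). No paired analysis was possible because each list is pooled over its pull-down samples, so no replicate could be left out either. The lowest number of fragments at a summit was 35 in both lists, and sites with fewer are not described here.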

Other observations

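Among peaks at a 5′ end, those that met a treated peak lay close to the start. Of 509 summits less than 300 bp inside the gene, 17 met a treated peak (3.34%, interval 1.96 to 5.29%), and of 489 summits further in, 5 did (1.02%, interval 0.333 to 2.37%). Folds of at least 15 made up 18.1% of the nearer and 13.7% of the farther summits, with medians of 11.5 and 11.2. On the outer side of the 5′ end the shares were 4.67% of 750 nearer summits and 3.18% of 628 farther ones. The limit of 300 bp was chosen after the values were seen, the intervals of the inside peaks overlap, and the difference was not tested.

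Peaks of this kind were sparse on the X chromosome, where 10 of 966 protein-coding genes held one (1.04%, interval 0.498 to 1.90%), on chromosome 14, with 14 of 850 (1.65%), and on the Y chromosome, with 1 of 256 (0.391%, interval 0.00989 to 2.16%), against 5.73% of all genes. The highest on X were at Ddx3x, for an RNA helicase (fold 16.1), Usp9x, for a deubiquitinase (13.7), and Stag2, for a cohesin subunit (12.9). The lowest was at Asmt (6.19), with a width of 238 bp and a background term of 8 in scaled coverage. On the autosomes the highest share was 8.60%, on chromosome 5. The share of genes with any DMSO summit was not counted by chromosome, so whether this spread is particular to the inside peaks was not tested.

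Non-coding genes lay beside some of these peaks. A lncRNA gene had an end within 1 kb of 193 of the 1258 summits (15.3%), against 266 of the summits outside 1 gene end (15.7%). Transfer RNA genes had an end that close to 11 summits (0.874%), among them those in Ppp6r3 (fold 15.1), Tia1 (12.7) and Tmpo (12.4). For miRNA genes it was 9 (0.715%), among them Ankrd10 with Mir7238 (17.1), Eif4e with Mir1956 (15.8) and Marf1 with Mir484 (13.2). These shares were not set beside those of other DMSO peaks, so no excess can be read from them. Genes with a peak inside 1 end had a median length of 26470 bp, against 17170 bp for all protein-coding genes, and 10.4% were under 5 kb, against 23.0%.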
